A study of Homo sapiens with 12 samples.

Results

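The 10 genes described here encode enzymes that crosslink and fold collagen: the lysyl oxidases LOX, LOXL1, LOXL2, LOXL3 and LOXL4, the lysyl hydroxylases PLOD1, PLOD2 and PLOD3, the prolyl hydroxylase subunit P4HA2 and the collagen chaperone SERPINH1. They were chosen by name from the 19907 gene symbols measured, and all 10 passed the minimum of 10 reads over the 12 libraries that left 18579 genes for testing. The libraries were RNA-seq of MDA-MB-231, an established human triple-negative breast cancer (TNBC) cell line that carries the glucocorticoid receptor (GR, gene NR3C1). The wt-GR cells were a single clone recovered from the CRISPR experiment without an edit at the target, and the S134A-GR cells were clone #1, in which both alleles encode alanine in place of a serine of the receptor that is phosphorylated (S134A). Each line is therefore 1 clone, and an effect of the substitution cannot be told apart from other differences between the clones. Both lines were starved for 18 h in IMEM with 1% DCC before a treatment of 6 h with vehicle or with 10 ng/mL TGFβ1, and each of the 4 groups holds 3 libraries.

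Collagen chains are modified in the endoplasmic reticulum before they are secreted. Prolyl 4-hydroxylases make the hydroxyproline that stabilizes the triple helix, lysyl hydroxylases make the hydroxylysine from which sugar chains and the more stable crosslinks are built, and the chaperone HSP47, the product of SERPINH1, binds the folded helix. Outside the cell, the copper-dependent lysyl oxidases convert lysine and hydroxylysine of collagen and elastin into aldehydes that form covalent crosslinks. In solid tumours these enzymes are studied for their part in matrix stiffening and invasion, and several of the genes are known targets of hypoxia-inducible factors (HIF) and of TGFβ.

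The 250 bases upstream of the annotated start were read from RefSeq (GRCh38.p14) for 9 of the 10 genes, all but LOXL2, because the groups compared differ in a receptor that binds DNA and in a cytokine that acts through SMAD proteins. Both strands were searched for 3 short motifs. For SMAD proteins the letters were CAGACA, which read TGTCTG on the other strand. The half-site of GR was searched for as AGAACA, with TGTTCT as its reverse complement. For HIF the core ACGTG was used, and CACGT is its reverse complement. Among 27305 promoters, 13.6% held the SMAD letters, 12.4% the GR half-site and 18.7% the HIF core. LOX held all of them, with 1 SMAD element, 1 GR half-site and 4 HIF cores, of which the first overlaps the SMAD element. PLOD2 held 2 HIF cores and P4HA2 held 1 SMAD element, whereas the windows of LOXL1, LOXL3, LOXL4, PLOD1, PLOD3 and SERPINH1 held none of these letters. A match describes the letters and not a bound site. Except for LOXL4, the RefSeq starts used lie inside the gene spans of the GENCODE annotation given further on, so these windows lie upstream of 1 annotated start and not of the whole gene. The stretches below are shown because they hold the matched letters of members that responded to TGFβ1, with the matches in capitals, 5′ to 3′ on the strand of the gene (minus in each case). Of the LOX window, the 96 bases that lie outside annotated exons are given, and they hold the GR half-site followed by the overlapping HIF core and SMAD element.
LOX, chr5:122078414-122078509: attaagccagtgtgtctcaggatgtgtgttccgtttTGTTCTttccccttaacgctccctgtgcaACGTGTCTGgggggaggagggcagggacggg
PLOD2, first HIF core, chr3:146161368-146161396: cgtgagcctccaCACGTagccgcaggcag
PLOD2, second HIF core, chr3:146161314-146161342: caaacagtccagACGTGgggcccaggagg
P4HA2, SMAD element, chr5:132227244-132227273: tcttttctccccCAGACAtccttgtggaac

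The window of LOXL4, the member with the largest difference between the lines, is shown for its base composition, with CG dinucleotides in capitals. Its GC content was 86.4%, against a median of 58% over all promoters, and 0.209% of promoters were as high. The window held 37 CG dinucleotides, against a median of 11, and 3.87% of promoters held at least as many. DNA methylation was not measured.
LOXL4, chr10:98268195-98268444, minus strand: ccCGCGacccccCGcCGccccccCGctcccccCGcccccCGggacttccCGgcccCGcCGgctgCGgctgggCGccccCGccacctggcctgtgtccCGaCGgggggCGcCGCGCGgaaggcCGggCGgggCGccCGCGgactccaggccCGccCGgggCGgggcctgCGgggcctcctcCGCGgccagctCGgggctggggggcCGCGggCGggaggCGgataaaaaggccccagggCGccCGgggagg

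The values are normalized counts, that is, reads per gene divided by a size factor of the library, and the recovered totals ranged from 56362036 to 129832227 reads per library. These totals are larger than the average depth stated in the methods of the study, and whether the mates of a read pair were counted as 1 or as 2 is not given in the sources used here. If mates were counted separately, floors and counting intervals rest on fewer fragments than reads and the intervals are too narrow. A count of 3 reads, taken as the floor, corresponded to 2.15 to 4.89 normalized counts. Such floors and counting intervals cover counting error only, and because the labels do not say that the 3 libraries of a group came from separate cultures, p-values measure only the spread between these libraries, which may be technical. NR3C1 was measured at a mean of 11771 ± 1186 normalized counts (SD, n = 3) in wt-GR and 8815 ± 259 in S134A-GR cells under vehicle, a level that does not check the point mutation. Limma called NR3C1 lower in S134A-GR cells both under vehicle and under TGFβ1, and the part of this difference in the results was not tested. VIM, a mesenchymal marker, was between 419832 and 533198 normalized counts over the 12 libraries. Of 5 receptor and epithelial genes listed as low in such cells, 4 were among the symbols measured, all but PGR. ESR1 and CDH1 did not exceed 12.5, whereas EPCAM was at 318 to 1093 and ERBB2 at 7229 to 10589. Of 6 fibroblast markers, DCN, LUM, THY1 and FAP stayed at or below 11.1. The summed level of the 6, nearly all of it PDGFRB, was 2135 to 2200 in wt-GR and 1852 to 1961 in S134A-GR cells under vehicle, and 3744 to 4050 and 2050 to 2304 under TGFβ1. The leukocyte marker PTPRC did not exceed 9.80. Of the endothelial markers, PECAM1 was at 746 to 1454 over the 12 libraries. CDH5 was at 165 to 234 in wt-GR and 13.2 to 37.1 in S134A-GR cells. The sum of these 4 endothelial and leukocyte markers, most of it CD68, was 29398 to 29776 in wt-GR and 41764 to 43954 in S134A-GR cells under vehicle. The part of these marker levels in the results was not tested. In bulk RNA, fewer cells that express a gene and less RNA per cell cannot be told apart.

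Per kilobase of annotated exon, PLOD1 had the highest level of the 10 genes in every group and LOXL3 and LOXL4 the lowest. The length used covers all annotated exons of a gene together, from 3597 bases for LOXL4 to 14518 for PLOD2. The transcripts expressed may be shorter, so ranks between genes depend on this length. In wt-GR cells under vehicle the mean count before division was 25329 for PLOD2 and 13492 for PLOD3, the reverse of their order per kilobase. In wt-GR cells under vehicle, PLOD1 reached 6980 ± 33.7 normalized counts per kilobase (SD, n = 3), followed by SERPINH1 at 4048 ± 130, LOXL2 at 3342 ± 102, PLOD3 at 2379 ± 70.7, LOXL1 at 2315 ± 166, LOX at 1821 ± 98.8, PLOD2 at 1745 ± 38.8, P4HA2 at 957 ± 11.7, LOXL3 at 57.5 ± 4.75 and LOXL4 at 15.7 ± 3.73. PLOD3 overlapped with LOXL1 and LOX with PLOD2, and the other neighbours in this order did not overlap. In S134A-GR cells under vehicle the order below PLOD1 was LOXL1 (3432 ± 144), PLOD3 (3011 ± 86.7), LOXL2 (2935 ± 17.3), SERPINH1 (2794 ± 40.4), LOX (1327 ± 82.9), P4HA2 (1189 ± 22.7), PLOD2 (843 ± 30.1), LOXL3 (46.4 ± 2.08) and LOXL4 (1.45 ± 1.38), with overlap between PLOD3 and LOXL2 alone. SERPINH1 thus had rank 2 in wt-GR cells and rank 5 in S134A-GR cells, and LOXL1 the reverse. Under TGFβ1 the ranks of SERPINH1 were 2 and 4 and those of LOXL1 were 4 and 2. At rank 4, LOXL1 overlapped with PLOD2 in wt-GR cells and SERPINH1 with LOXL2 in S134A-GR cells.

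**Figure D1:**
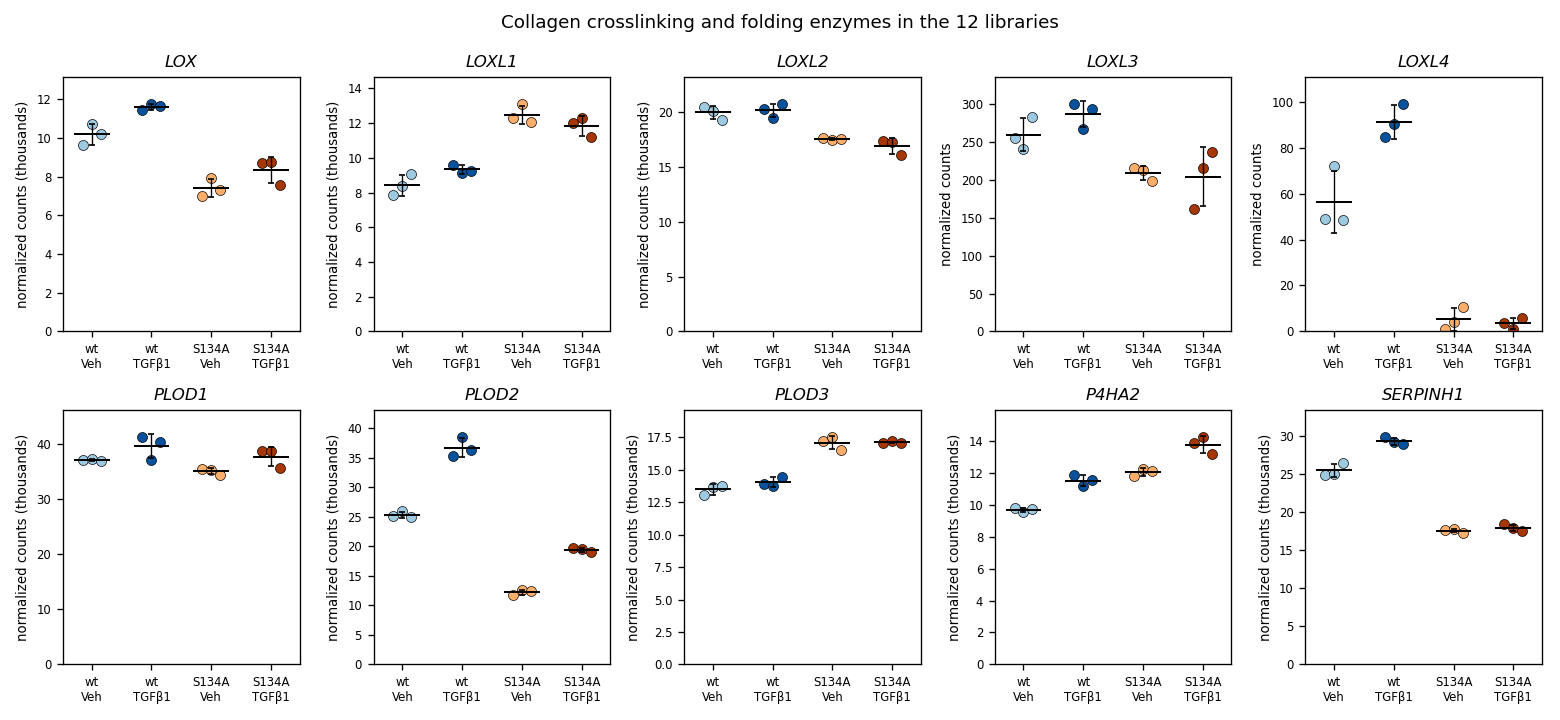
Normalized counts of the 10 genes in each of the 12 libraries (points), with the mean and SD of each group of 3 (lines), on axes that start at 0 and are scaled per gene. PLOD2 was lower in S134A-GR cells and higher under TGFβ1 in both lines, while the mean of SERPINH1 rose from 25423 to 29248 with TGFβ1 in wt-GR cells and stood at 17552 and 17905 in the mutant line.

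Both lines were compared under vehicle to ask how the lines differ without a stimulus. PLOD2 and SERPINH1 were lower in S134A-GR cells, together with LOX, LOXL2 and LOXL4, whereas LOXL1, PLOD3 and P4HA2 were higher. At an adjusted p under 0.05 in limma, fitted over all genes with Benjamini-Hochberg adjustment, 3 members were called higher and 5 lower. The background is broad, since 25.0% of all tested genes were called higher and 26.5% lower. The median log2 fold change of the 10 members was −0.25, and that of all genes was 0.019.

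Among the lysyl hydroxylases, PLOD2 (chr3:146035139-146163725), which hydroxylates the telopeptides at the ends of the collagen helix and so sets which kind of crosslink can form, had 25085, 25973 and 24930 normalized counts in wt-GR cells and 11749, 12584 and 12392 in S134A-GR cells. Every S134A-GR library was below every wt-GR library. The log2 fold change was −1.05 (SE 0.039, adjusted p = 9e-11 by limma), and the mean in S134A-GR cells was 0.483 of that in wt-GR cells. PLOD3 (chr7:101205977-101218420), a lysyl hydroxylase that also transfers the sugars of hydroxylysine, went the other way, from 13030, 13697 and 13749 to 17204, 17490 and 16532, with a log2 fold change of 0.34 (SE 0.034, adjusted p = 1.5e-06) without overlap. PLOD1 (chr1:11934205-11975538), which hydroxylates lysines within the helix, was between 36930 and 37275 in wt-GR and between 34450 and 35561 in S134A-GR cells. Its difference of −0.081 (95% interval −0.17 to 0.0096) did not pass the test (adjusted p = 0.13 by limma), but it did when the 2 groups compared were fitted alone (adjusted p = 0.040).

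SERPINH1 (chr11:75562056-75572783) had 24879, 25025 and 26366 normalized counts in wt-GR cells and 17682, 17714 and 17259 in S134A-GR cells, again with no overlap. Its log2 fold change was −0.53 (SE 0.033, adjusted p = 1.1e-08 by limma). P4HA2 (chr5:132190147-132295315), a catalytic subunit of prolyl 4-hydroxylase, was higher in S134A-GR cells, with 11799, 12253 and 12086 against 9771, 9560 and 9759 in wt-GR cells. The log2 fold change was 0.31 (SE 0.036, adjusted p = 5.2e-06), so the chaperone and the hydroxylase subunit differed in opposite directions.

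The lysyl oxidases also split. LOX (chr5:122063195-122078413), the founding member of the family, had 9638, 10744 and 10194 normalized counts in wt-GR cells and 7016, 7928 and 7326 in the mutant line, which gives a log2 fold change of −0.46 (SE 0.060, adjusted p = 1.8e-05 by limma). LOXL1 (chr15:73925989-73952137), known for its part in elastic fibre assembly, had 7832, 8384 and 9039 in wt-GR cells and 12297, 13073 and 12077 in the mutant line, which gives a log2 fold change of 0.57 (SE 0.053, adjusted p = 6.2e-07). The groups of neither gene overlapped, and their differences were opposite in sign. LOXL1-AS1, which lies on the opposite strand and shares 9.21% of the exonic bases of LOXL1, was also higher by 0.13 (adjusted p = 0.018), and no strand setting is given in the sources used here.

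LOXL2, LOXL3 and LOXL4 are related enzymes that carry scavenger receptor domains, and LOXL2 acts on collagen IV of basement membranes. LOXL2 (chr8:23296897-23425328) was slightly lower in S134A-GR cells, at 17640, 17448 and 17612 against 20525, 20149 and 19329, with a log2 fold change of −0.19 (SE 0.038, adjusted p = 0.00081 by limma). LOXL3 (chr2:74532258-74555690) was near 250 counts, at 256, 241 and 283 in wt-GR and 216, 214 and 199 in S134A-GR cells. Its groups did not overlap but its difference of −0.31 (95% interval −0.60 to −0.017) did not pass the test (adjusted p = 0.073). Its call rested on which libraries shared the estimate of spread: the adjusted p was 0.025 without S134A-GR TGFβ1 replicate 1 and 0.044 with the 2 groups compared alone. Of the exonic bases of LOXL3, 25.5% are shared with HTRA2 and DOK1 on the opposite strand, so its reads may include theirs.

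LOXL4 (chr10:98247690-98268194) was low in wt-GR cells and close to the floor in S134A-GR cells. Under vehicle its libraries held 48.9, 71.9 and 48.4 normalized counts in wt-GR and 0.943, 4.05 and 10.7 in S134A-GR cells, from 144 and 17 reads in all. The wt-GR level was 10.7 times that of S134A-GR cells (95% exact binomial interval 6.45 to 18.9, counting error only). Under TGFβ1 the wt-GR libraries held 84.4, 90.1 and 98.8 normalized counts and the S134A-GR libraries 3.80, 1.01 and 5.72, a ratio of 24.1 (interval 13.9 to 45.8) from 296 and 13 reads. Both differences were called by limma (adjusted p = 0.0001 and 1.2e-05), but their log2 fold changes of −3.54 and −4.51 depend on the pseudocount and were as small as −1.78 and −2.46 over the alternatives.

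The comparison of the lines under TGFβ1 asks whether these differences are also present with the cytokine. There, 3 members were called higher and 6 lower by limma, against 23.1% and 25.7% of all genes. The 3 higher genes were LOXL1 (0.34), PLOD3 (0.29) and P4HA2 (0.26) on the log2 scale, and the lower ones were LOXL4, PLOD2 (−0.92), SERPINH1 (−0.71), LOXL3 (−0.50), LOX (−0.48) and LOXL2 (−0.25). PLOD2 had 35263, 38456 and 36390 normalized counts in wt-GR and 19722, 19485 and 18971 in S134A-GR cells. Likewise, SERPINH1 was at 29757, 29141 and 28846 in wt-GR and at 18356, 17823 and 17535 in S134A-GR cells, which left 0.612 of the wt-GR mean, against 0.690 under vehicle. LOXL3 passed the test here (adjusted p = 0.0067), with 300, 268 and 294 against 162, 216 and 237. PLOD1 did not (−0.069, adjusted p = 0.20), although without wt-GR TGFβ1 replicate 2, its lowest wt-GR library, the value was −0.12 (adjusted p = 0.030), and scaling to equal totals turned it to 0.0043.

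**Figure D2:**
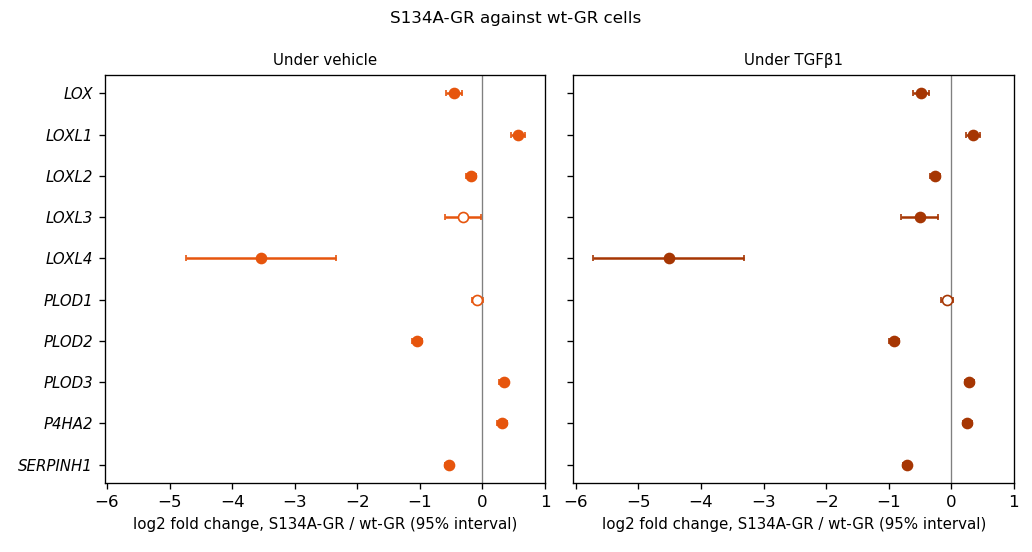
Difference of S134A-GR minus wt-GR cells (log2 fold change) for each gene with its 95% interval from limma, under vehicle (left) and under TGFβ1 (right). Filled points passed an adjusted p of 0.05. LOXL1, PLOD3 and P4HA2 lie above 0 and LOX, LOXL2, LOXL4, PLOD2 and SERPINH1 below 0 in both panels, with LOXL4 at −3.54 and −4.51.

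The make-up of both enzyme families differed between the lines. Per kilobase, the 5 lysyl oxidases summed to 7551 ± 154 normalized counts in wt-GR and 7741 ± 202 in S134A-GR cells under vehicle (SD, n = 3), ranges that overlapped. Under TGFβ1 the sum was lower in S134A-GR cells without overlap, at 7616 ± 393 against 8102 ± 131. Under vehicle, LOXL1 was 30.6% ± 1.79 of that sum in wt-GR and 44.3% ± 0.745 in S134A-GR cells. LOX was 24.1% ± 0.863 and 17.1% ± 0.668, and LOXL2 44.3% ± 2.06 and 37.9% ± 1.19, and neither overlapped between the lines. On this scale LOXL2 held the largest share in wt-GR cells and LOXL1 in S134A-GR cells. That order depends on the exon length, which was 5985 bases for LOXL2 and 3637 for LOXL1. Before division by length, LOXL2 was also above LOXL1 in S134A-GR cells under vehicle (means of 17567 and 12482).

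The lysyl hydroxylases summed to 11103 ± 98.9 and 10454 ± 184 normalized counts per kilobase under vehicle, without overlap. PLOD1 made up 62.9% ± 0.520 in wt-GR and 63.1% ± 0.408 in S134A-GR cells. PLOD2, the telopeptide enzyme, was 15.7% ± 0.234 of the family in wt-GR and 8.07% ± 0.338 in S134A-GR cells, and 20.3% ± 1.46 and 11.7% ± 0.163 under TGFβ1. The share of PLOD3 was 21.4% ± 0.519 and 28.8% ± 0.334 under vehicle. The exon length used was 14518 bases for PLOD2, 5320 for PLOD1 and 5671 for PLOD3, so the size of each share depends on it. Before division by length, the means in wt-GR cells under vehicle were 37131 for PLOD1, 25329 for PLOD2 and 13492 for PLOD3. These shares are of RNA, and protein was not measured here.

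**Figure D3:**
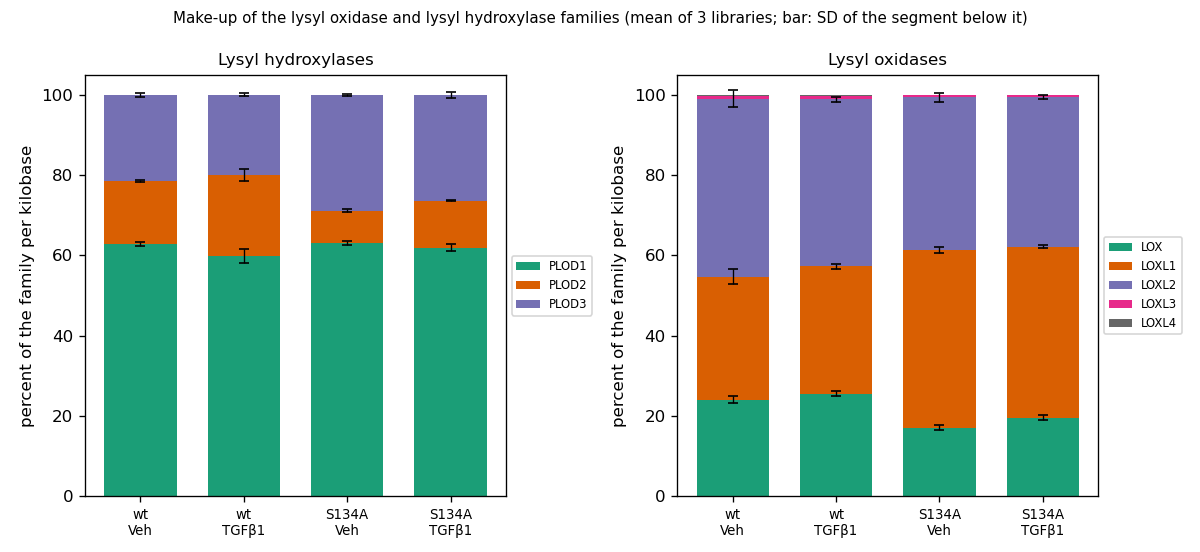
Share of each gene in the summed level per kilobase of exon of the lysyl hydroxylases (left) and lysyl oxidases (right), as the mean of 3 libraries per group, with the SD of each share drawn at the top of its segment. The PLOD2 segment narrows from 15.7% to 8.07% and the LOXL1 segment widens from 30.6% to 44.3% between wt-GR and S134A-GR cells under vehicle, and LOXL4, at a mean of at most 0.313%, is too thin to see.

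The lines are separate clones, so the 10 tested genes on either side of each member on its chromosome were measured in the same comparison. Beside these counts, 26.5% of all tested genes were called lower and 25.0% higher under vehicle, and 25.7% and 23.1% under TGFβ1. For SERPINH1, on chromosome 11, the median log2 fold change of the 20 neighbours under vehicle was −0.74, below the −0.53 of SERPINH1 itself, and 17 of 20 were below 0, of which 10 were called lower. Under TGFβ1 the order was the reverse, with a neighbour median of −0.65 and −0.71 for SERPINH1, and 18 of 20 neighbours were below 0, with 11 called lower and 1 higher. The neighbours of LOXL3 had a median of −0.37, with 16 of 20 below 0 and 10 called lower, beside −0.31 for LOXL3 under vehicle, which was not called. The part of these stretches in the values of SERPINH1 and LOXL3 was not tested.

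For PLOD2 the neighbours had a median of −0.24 under vehicle, and PLOD2 itself was at −1.05. Of these neighbours, 16 of 20 were below 0, with 12 called lower and 1 higher. TM4SF18 (−1.48) and TM4SF1 (−1.13) among them were lower than PLOD2. The neighbours of LOX had a median of −0.17 beside −0.46 for LOX, with 14 of 20 below 0, 10 called lower and 2 higher. The part of these stretches in the values of PLOD2 and LOX was not tested either. LOXL4 went against its surroundings, since its 20 neighbours had a median of 0.41, with 16 of 20 above 0 and 12 called higher. For LOXL1, LOXL2, PLOD1, PLOD3 and P4HA2 the neighbour medians lay between −0.019 and 0.052.

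**Figure D4:**
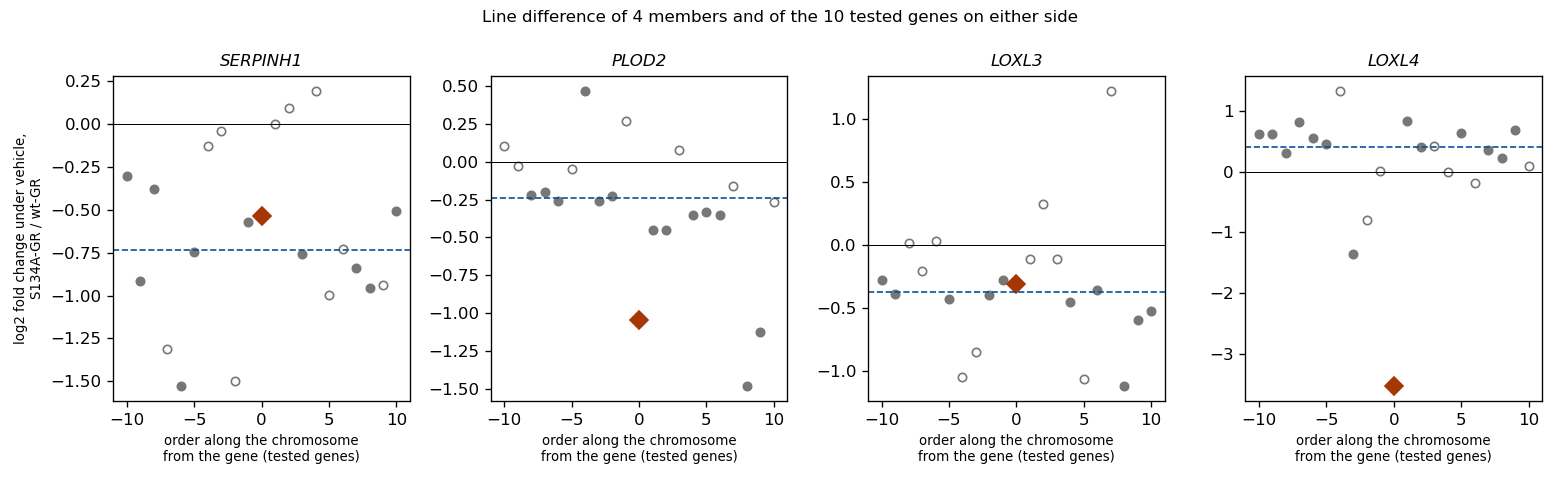
Line difference under vehicle (log2 fold change, S134A-GR over wt-GR) for SERPINH1, PLOD2, LOXL3 and LOXL4 (diamonds) and for the 10 tested genes on either side in chromosome order (circles, filled where called), with the median of the neighbours as a dashed line. SERPINH1 and LOXL3 lie among their neighbours, PLOD2 at −1.05 lies below a neighbour median of −0.24, and LOXL4 at −3.54 lies below a neighbour median of 0.41.

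Cells given TGFβ1 were compared with vehicle within each line to ask which of these genes respond to the cytokine within 6 h. In wt-GR cells limma called 4 members higher and 0 lower, against 11.2% and 9.82% of all genes. They were PLOD2, P4HA2, SERPINH1 and LOX. At an unadjusted p under 0.05, 6 members were higher and 0 lower, and edgeR and DESeq2 also called 0 lower. The share of all genes at this unadjusted cutoff is not given here, so counts at it have no background beside them, here and below. PLOD2 rose from a mean of 25329 ± 563 to 36703 ± 1619 normalized counts (SD, n = 3), a log2 fold change of 0.53 (SE 0.039, adjusted p = 1.8e-07). P4HA2 rose by 0.25 (SE 0.036, adjusted p = 0.00018), from 9771, 9560 and 9759 to 11840, 11148 and 11561, without overlap. P4HA2-AS1, an opposite-strand gene with 5.41% of the exonic bases of P4HA2, rose by 0.43 in wt-GR and 0.40 in S134A-GR cells, and reads of the pair cannot be told apart without strand. SERPINH1 rose by 0.20 (SE 0.033, adjusted p = 0.00044), again without overlap.

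LOX had 11455, 11739 and 11645 normalized counts in wt-GR TGFβ1 libraries, a rise of 0.19 (SE 0.060, adjusted p = 0.037 by limma). That call was lost in 8 of 25 alternatives. Without a library it was lost for wt-GR Veh replicates 1 (adjusted p = 0.13) and 3 (0.057) and for wt-GR TGFβ1 replicates 1 (0.076), 2 (0.099) and 3 (0.093), and the estimate stayed between 0.13 and 0.23 over all alternatives. LOXL1 was 0.15 higher and just missed the threshold (adjusted p = 0.058), and it passed without wt-GR Veh replicate 3 (adjusted p = 0.0089) or S134A-GR TGFβ1 replicate 3 (0.048) and in DESeq2 (0.044), which called 5 members higher. PLOD1 at 0.091 (adjusted p = 0.15) passed without wt-GR TGFβ1 replicate 2 (0.030). LOXL2 (0.014), LOXL3 (0.15) and PLOD3 (0.056) did not pass. LOXL4 was at 0.70 (adjusted p = 0.44) with groups that did not overlap, and it passed with a pseudocount of 16 (0.58, adjusted p = 0.034).

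In S134A-GR cells limma called 2 members higher and 0 lower, against 10.0% and 8.69% of all genes at the same adjusted p. At an unadjusted p under 0.05, for which no share of all genes is given, 4 members were higher and 0 lower. PLOD2 rose from 12242 ± 437 to 19393 ± 384 normalized counts, a log2 fold change of 0.66 (SE 0.039, adjusted p = 2.2e-08), and P4HA2 rose by 0.19 (SE 0.036, adjusted p = 0.0017). PLOD2 under TGFβ1 in S134A-GR cells stayed below its vehicle level in wt-GR cells, since the highest of the former libraries was 19722 and the lowest of the latter 24930. SERPINH1 had 18356, 17823 and 17535 under TGFβ1 beside 17682, 17714 and 17259 under vehicle, groups that overlap, with a log2 fold change of 0.029 (95% interval −0.041 to 0.099, adjusted p = 0.62). For LOX the value was 0.17 (adjusted p = 0.071), for PLOD1 0.10 (0.11), for LOXL1 −0.079 (0.35) and for LOXL2 −0.053 (0.39). Without S134A-GR TGFβ1 replicate 3, LOX (0.24, adjusted p = 0.0091) and PLOD1 (0.14, adjusted p = 0.038) were called as well, and without S134A-GR Veh replicate 2 LOX was (0.21, adjusted p = 0.039). DESeq2 called 3 members higher in S134A-GR cells, with LOX added (0.17, adjusted p = 0.041), edgeR called 2, and both called 0 lower.

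Whether the lines responded differently was tested as an interaction of line and treatment. Limma called 0 of the 10 members in either direction, against 0.167% of all genes higher and 0.248% lower, and edgeR and DESeq2 also called 0. At an unadjusted p under 0.05 there were 3 members, and the share of all genes at that cutoff is not given here. For SERPINH1 the S134A-GR response minus the wt-GR response was −0.17 on the log2 scale (95% interval −0.27 to −0.075, adjusted p = 0.20), with an adjusted p of 0.048 without wt-GR Veh replicate 3. LOXL1 had a difference of −0.23 (interval −0.39 to −0.070, adjusted p = 0.34) and PLOD2 one of 0.13 (interval 0.013 to 0.25, adjusted p = 0.49). The intervals of LOX (−0.21 to 0.16), P4HA2 (−0.17 to 0.053) and PLOD3 (−0.16 to 0.051) included 0.

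**Figure D5:**
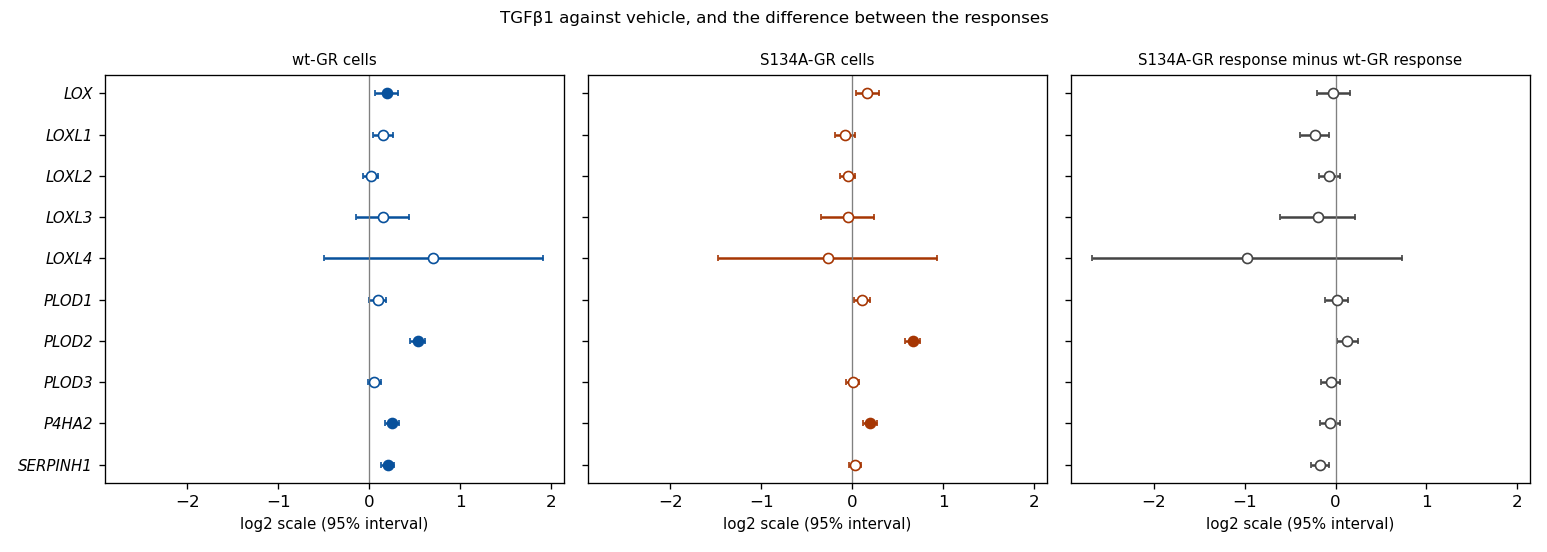
Log2 fold change under TGFβ1 in wt-GR (left) and S134A-GR cells (middle), and the difference between the lines (right), for each gene with its 95% interval from limma and with filled points for an adjusted p under 0.05. PLOD2 (0.53 and 0.66) and P4HA2 (0.25 and 0.19) are filled in both lines, SERPINH1 and LOX in wt-GR cells, and no gene in the right panel.

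The TGFβ1 response controls SMAD7, SKIL, PMEPA1 and TGFBI rose in both lines. PMEPA1, a feedback inhibitor of the pathway, rose by 2.90 in wt-GR and 2.18 in S134A-GR cells on the log2 scale, and its response was lower in S134A-GR cells (difference −0.72, adjusted p = 0.00091 by limma). Of the 9 substrates of lysyl oxidases listed, 5 rose in each line and 0 fell (also 0 at an unadjusted p under 0.05 and by edgeR and DESeq2), among them COL1A1, the main chain of type I collagen, and COL4A1, a chain of basement membranes. The mean of COL4A1 rose from 10009 ± 927 to 39720 ± 701 in wt-GR and from 4616 ± 125 to 17864 ± 521 normalized counts in the mutant line. COL1A1 rose from 1153 ± 198 to 8945 ± 486 in wt-GR and from 2271 ± 139 to 7923 ± 752 in S134A-GR cells, and its response differed between the lines (−1.17, adjusted p = 0.0026). The median log2 fold change of the 9 substrates was 1.09 in wt-GR and 0.87 in S134A-GR cells, beside 0.17 and 0.016 for the 10 enzymes.

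Under vehicle 4 of the 9 substrates were higher and 3 lower in the mutant line, against 25.0% and 26.5% of all genes. COL1A1 (0.99) and ELN, which encodes elastin (1.04), were higher, whereas COL4A1 (−1.11) was lower.

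Other genes of the same pathways were read from lists. Beside the counts of these lists, 25.0% of all tested genes were called higher and 26.5% lower between the lines under vehicle. Under TGFβ1 the shares were 23.1% and 25.7%. For the TGFβ1 response they were 11.2% and 9.82% in wt-GR cells and 10.0% and 8.69% in S134A-GR cells. Of 9 other prolyl hydroxylases and partners, S134A-GR cells had 4 higher and 2 lower under vehicle, and 4 and 4 under TGFβ1. P3H4 (0.61) and P3H3 (0.53), which form a complex with the PLOD1 product, were higher, and P3H2, a prolyl 3-hydroxylase, was lower (−0.39). P4HA1, the other main catalytic subunit, was higher by 0.21 (adjusted p = 0.0026), as P4HA2 was, and their shared partner P4HB was lower (−0.32, adjusted p = 3.1e-06). In wt-GR cells limma called 1 gene of this list lower under TGFβ1, P3H2 (−0.13), and 0 higher, with a list median of 0.082. At an unadjusted p under 0.05, 4 were higher and 1 lower there, and edgeR called 0 and DESeq2 1 higher. In S134A-GR cells limma called 0, with P4HA1 at 0.15 (adjusted p = 0.050). In that line 1 gene was higher and 1 lower at an unadjusted p under 0.05, and edgeR and DESeq2 each called 1 higher.

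Among 11 genes of procollagen folding and export, 4 were higher and 6 lower under vehicle, and 5 and 6 under TGFβ1. FKBP10 encodes the prolyl isomerase FKBP65, a partner of the PLOD2 product in telopeptide hydroxylation, and had the largest difference of the list. It had a mean of 3180 ± 42.0 normalized counts in wt-GR and 13217 ± 296 in S134A-GR cells without TGFβ1, a difference of 2.05 on the log2 scale (adjusted p = 2.5e-13), and 3363 ± 160 and 13698 ± 192 with it. PLOD2 and FKBP10 thus differed in opposite directions between the lines. CREB3L1, a transcription factor of the secretory pathway, was lower in S134A-GR cells (−0.42) and rose under TGFβ1 in both lines (0.38 and 0.48). Of the hydroxylysine glycosyltransferases, COLGALT1 was higher by 0.12 under vehicle and COLGALT2 lower (−0.73), and COLGALT2 fell under TGFβ1 in both lines (−0.79 and −0.68).

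Of 10 general chaperones of the endoplasmic reticulum, S134A-GR cells had 0 higher and 8 lower under vehicle, and 0 and 9 under TGFβ1, with a median of −0.22 under vehicle. At an unadjusted p under 0.05 by limma, and by edgeR and DESeq2, 0 were higher in either comparison. HYOU1 (−0.98) and PDIA6 (−0.88) had the largest differences. SERPINH1, at −0.53, lay between the median of these chaperones and PDIA6.

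Hypoxia-responsive genes were listed because LOX, PLOD2 and P4HA2 are known HIF targets. Of the 10 listed, S134A-GR cells had 8 lower and 1 higher under vehicle, and 9 and 1 under TGFβ1. ADM, a vasodilator peptide, was at −1.02, VEGFA, the angiogenic growth factor, at −0.98 and CA9, a carbonic anhydrase, at −0.88, while ANKRD37 was higher by 0.31. The median of the list was −0.45, beside −0.46 for LOX, −1.05 for PLOD2 and 0.31 for P4HA2. TGFβ1 raised 3 of the 10 in wt-GR and 5 in S134A-GR cells and lowered 0 (also 0 at an unadjusted p under 0.05 and by edgeR and DESeq2), and the largest rise was that of SLC2A1, a glucose transporter (0.84 in both lines). The labels do not mention oxygen, and its part in these values was not tested.

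Of 8 genes of propeptide processing, S134A-GR cells had 2 higher and 1 lower under vehicle, and 2 and 0 under TGFβ1, where an unadjusted p under 0.05, edgeR and DESeq2 also gave 0 lower. BMP1, the procollagen C-proteinase that also activates LOX, was higher by 0.37 (adjusted p = 6.4e-05) under vehicle and rose under TGFβ1 by 0.54 in wt-GR and 0.35 in S134A-GR cells. PCOLCE2, an enhancer of the proteinase, was higher by 0.47.

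Of 8 listed genes of lysyl oxidase maturation and scaffolds, 7 were analysed here, of which S134A-GR cells had 1 higher and 2 lower under vehicle, and 0 and 4 under TGFβ1, where an unadjusted p under 0.05, edgeR and DESeq2 also gave 0 higher. FN1, or fibronectin, on which LOX assembles, was lower (−2.10), with 42646 ± 13731 normalized counts in wt-GR and 9582 ± 377 in S134A-GR cells. FMOD, or fibromodulin, a collagen-binding proteoglycan, had 71.7 to 97.2 normalized counts in the wt-GR vehicle libraries and a count of 0 in all 6 S134A-GR libraries, which allows up to 2.15 to 3.04 normalized counts in a library. THBS1 and SPARC rose under TGFβ1 in both lines (THBS1 by 1.08 and 1.05).

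Of 4 other crosslinking enzymes, 2 were higher and 2 lower under vehicle, and 1 and 2 under TGFβ1. PXDN, the peroxidase that crosslinks collagen IV, was lower (−1.20), with 83764 ± 5321 and 36291 ± 535 normalized counts. TGM2, a transglutaminase, was lower (−0.40) and rose under TGFβ1 by 0.25 in wt-GR and 0.40 in S134A-GR cells.

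Over the 12 libraries, the genes whose log2 values followed each member most closely were found among 12468 genes with a mean of at least 100 normalized counts. Pearson's r is given as a description without a test, since the points fall into 4 groups and share libraries. For PLOD2 the closest were RABGEF1 (r = 0.997), TARS (0.996) and IGF2BP3 (0.995), and for SERPINH1 they were RHOB (0.996), CFL1 (0.995) and TMBIM1 (0.994). LOX was followed by PDCD10 (0.987), PDK1 (0.987), which is one of the hypoxia-responsive genes listed, and NNMT (0.986). The closest genes were H2AFJ for LOXL1 (0.987), ITGA3 for LOXL2 (0.970), NDUFV1 for LOXL3 (0.981), TENM1 for LOXL4 (0.979), SLC31A2 for PLOD3 (0.993) and FAM214B for P4HA2 (0.989). The weakest of these was TRIM6 for PLOD1 (0.921).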

How the data were processed

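The authors checked reads with FastQC 0.11.7, trimmed them with Trimmomatic, mapped them with HISAT2 (hg38) and counted genes with featureCounts. Size factors of DESeq2 1.22.2 were then divided out. The deposited signal is this normalized count, 1 value per gene symbol and library. The annotation and strand setting are not given in the sources used here. Reads were recovered from the step between low values, and 100% of values came out whole within a tolerance of 0.1.

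With limma 3.58.1 (R 4.3.3), log2(value + 1) was modelled with 4 group means, all 12 libraries and a trended prior, for 18579 genes with at least 10 reads in all. Fold changes on the log2(value + 1) scale understate those of low genes. P-values were adjusted by Benjamini-Hochberg over all genes and called at 0.05. Cutoffs of 1 and 1.5 on the absolute log2 fold change were alternatives, as were edgeR 4.0.16 and DESeq2 1.42.0 on the recovered reads, other pseudocounts, filters and scalings, a replicate block and leaving out each library. Scaling to equal totals and edgeR with a replicate block were chosen after seeing the data. Exon lengths, positions and neighbours came from GENCODE v44 on hg38 and upstream sequences from RefSeq.

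All 10 members are named. From each list, at most the 3 called genes with the largest change per comparison, and P4HA1, P4HB, COLGALT1, FKBP10, BMP1, COL1A1, NR3C1 and the response controls, could be named. Other genes are named as markers or partners, and 1 response control is not reported here. The members and lists were chosen with earlier results of these data known.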

Additional observations from a re-analysis of the deposited data

How the results depend on the processing

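The 5 comparisons of the 10 members were recomputed under 25 alternatives (24 for the difference between responses), and the direction and call of most values stayed: 1192 member values kept both, 17 passed the threshold newly, 8 lost it and 23 turned direction. All 8 losses were the rise of LOX in wt-GR cells, among them upper quartile scaling (0.18, adjusted p = 0.055) and no trended prior (adjusted p = 0.0996). When a log2 fold change of 1 or more in size was also required, the counts were 0 higher and 2 lower under vehicle, 0 and 1 under TGFβ1, and 0 higher in either TGFβ1 response. At 1.5 they were 0 and 1 under vehicle, 0 and 1 under TGFβ1 and 0 higher in the responses. The share of all genes that passed these cutoffs is not given here, so these counts have no background beside them. Leaving out each library in turn gave 3 to 5 members higher in the wt-GR response, 2 to 4 in the S134A-GR response and 0 to 1 lower in the difference between responses. In the line comparisons it gave 3 higher, with 5 to 6 lower under vehicle and 6 to 7 under TGFβ1. Over the same fits, 2806 to 4379 of all genes were called in either direction in the wt-GR response and 2498 to 3840 in the S134A-GR response. For the difference between responses the calls were 22 to 166. Between the lines they were 8487 to 9697 under vehicle and 8071 to 9385 under TGFβ1.

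With a replicate block, limma called 4 members higher in the wt-GR response and 3 in the S134A-GR response, where LOX was added (adjusted p = 0.046), and the block changed no other call. Same-numbered libraries did not deviate together (mean r 0.00089 over 12468 genes) and share only a number. Scaling to equal totals, which took the median of all genes between the lines under vehicle from 0.019 to 0.095, called 1 member lower in the S134A-GR response (LOXL2, −0.12) and turned PLOD1 between the lines under TGFβ1 (0.0043), LOXL2 (−0.050) and PLOD3 (−0.0074) in the wt-GR response, and PLOD3 (−0.065) and SERPINH1 (−0.039) in the S134A-GR response, none of them called. PLOD3 in the S134A-GR response was also −0.000215 in edgeR with TMM, −0.000337 in edgeR with a block and −0.022 with upper quartile scaling, which turned PLOD1 in the difference to −0.000785. Without single libraries, LOXL2 in the wt-GR response ranged from −0.011 to 0.037, PLOD3 from −0.020 to 0.020, LOXL3 from −0.16 to 0.11 and LOXL4 from −0.94 to 0.36 in the S134A-GR response, and LOX from −0.064 to 0.046 and PLOD1 from −0.035 to 0.050 in the difference. The cause of these changes was not tested. Depth limits LOXL4 in S134A-GR cells, where libraries held 1 to 12 reads.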
